A study of Mus musculus with 16 samples.

Results

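Immediate early and feedback genes were followed as a list of 36 named genes in sorted resident macrophages with and without Bhlhe40, a transcriptional repressor of the basic helix-loop-helix class. The list holds AP-1 and EGR transcription factors, NR4A nuclear receptors, dual-specificity phosphatases, NF-kB feedback genes and other genes of the same early response. The list was given by symbol, but earlier results of these data were known when it was chosen. Shares of members called, set beside those of all genes, are therefore a description. Each of the 36 had exactly 1 probe set, out of 19938 genes with a probe set of a single symbol. A gene was tested where its signal passed the array's median on 2 or more arrays, which held for 35 members among 11634 genes. Dusp2, a nuclear phosphatase of MAP kinases, did so on 1 of 16 arrays and was not tested; its log2 signal ran from 4.11 to 4.86.

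All 16 one-colour mouse gene arrays came from male mice of strain C57BL/6. Alveolar macrophages (AM), which live in the airspaces of the lung, were taken from lung digests of untreated mice on 2 wild-type (Bhlhe40+/+, WT) and 2 knockout (Bhlhe40-/-, KO) arrays. The peritoneal lavage of untreated mice gave the large peritoneal macrophages (LPM), the chief macrophages of the resting cavity, on 3 arrays of each genotype. A second set of LPM came after treatment with IL-4c, an interleukin-4 complex that drives alternative activation of resident macrophages. It was given by injection on days 0 and 2, and the cells were collected on day 4. That set held 2 WT, 2 KO and 2 LysM arrays, the last from LysM-Cre+ Bhlhe40fl/fl mice, in which the Cre is driven by a lysozyme promoter active in myeloid cells; the labels name no group with the Cre alone. The labels give no ages and do not say whether each array stands for its own mouse. The p-values therefore reflect array-to-array spread alone, and precision is limited by how few arrays there are. The question addressed here is how the early-response genes differ between the macrophage types, after IL-4c and without Bhlhe40.

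Immediate early genes are transcribed within minutes of a signal, from factors already present in the cell such as SRF, CREB and NF-kB, and need no new protein for it. Many of them then act back on the signal: DUSP phosphatases remove phosphate from MAP kinases, Zfp36 speeds the decay of AU-rich messenger RNAs, and IkB proteins and Tnfaip3 hold NF-kB in check. In macrophages the same genes respond to microbial products, to adhesion and to handling of the tissue.

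Array medians lay between 4.79 and 4.93, and arrays of a group correlated at 0.989 to 0.995 over probe sets (a description, since probe sets are not replicates). The labelled cell types were borne out by their markers: the mean of 8 AM markers ran from 10.15 to 10.50 on AM arrays and from 4.89 to 6.47 on LPM arrays, and the mean of 9 LPM markers from 9.47 to 10.84 on LPM arrays and from 4.78 to 5.22 on AM arrays. The Bhlhe40 log2 signal ran from 8.64 to 10.07 on WT arrays, from 6.5 to 8.01 on KO arrays and read 8.75 and 8.83 on LysM arrays. It was lower in KO in AM, naive LPM and IL-4c LPM (KO minus WT -2.17, -1.89 and -0.93, limma adjusted p = 6.1e-05, 6.4e-06 and 0.013). On the arrays labelled LysM it was not detectably lower (LysM minus WT -0.09, 95% interval -0.50 to 0.31, adjusted p = 0.84). No source used here says where its probes lie relative to the deleted parts, so directions drawn from the LysM arrays rest on the label. In sorted bulk samples, fewer cells that express a gene and less RNA per cell cannot be told apart.

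The promoters shown here belong to Jun, Dusp1, Ier3 and Zfp36. In these and 1 more of the 5 members called, the KO minus WT difference was larger in IL-4c than in naive LPM (limma, adjusted p under 0.05). No entry was at hand for the fifth, Nfkbiz. The promoters were read from RefSeq promoter windows of build GRCm38.p6, of which 31 of the 36 members had at least 1. Each run below gives the 250 bases before the start site, 5′ to 3′ on the gene's own strand. They lie at chr4:95052223-95052472 (minus strand) for Jun, chr17:26508473-26508722 (minus) for Dusp1, chr17:35821463-35821712 (plus) for Ier3 and chr7:28379229-28379478 (minus) for Zfp36. Capitals mark matches to the motifs named after the sequences.
Jun: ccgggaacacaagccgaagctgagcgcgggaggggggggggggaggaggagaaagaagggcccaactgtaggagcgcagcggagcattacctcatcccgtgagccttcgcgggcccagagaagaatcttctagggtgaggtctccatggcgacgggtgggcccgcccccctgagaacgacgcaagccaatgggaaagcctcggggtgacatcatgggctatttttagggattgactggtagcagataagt
Dusp1: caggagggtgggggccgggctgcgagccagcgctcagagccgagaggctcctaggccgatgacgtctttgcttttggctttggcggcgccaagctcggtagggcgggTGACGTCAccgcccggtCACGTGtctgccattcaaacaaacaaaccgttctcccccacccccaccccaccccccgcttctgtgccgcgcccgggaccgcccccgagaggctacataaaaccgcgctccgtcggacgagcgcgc
Ier3: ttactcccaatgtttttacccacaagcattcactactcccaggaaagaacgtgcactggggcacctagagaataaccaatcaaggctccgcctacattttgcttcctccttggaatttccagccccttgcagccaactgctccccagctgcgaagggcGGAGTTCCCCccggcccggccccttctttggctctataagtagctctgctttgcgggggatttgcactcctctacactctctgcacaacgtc
Zfp36: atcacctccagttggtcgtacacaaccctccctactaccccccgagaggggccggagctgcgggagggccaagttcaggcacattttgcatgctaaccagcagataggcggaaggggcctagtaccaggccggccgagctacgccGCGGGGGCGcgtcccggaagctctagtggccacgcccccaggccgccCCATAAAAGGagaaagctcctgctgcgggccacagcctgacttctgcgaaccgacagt

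The Dusp1 window held the full cAMP response element TGACGTCA, which starts 143 bases before the start site, and the E-box CACGTG, the sequence that Bhlhe40 is known to bind, 126 bases before it. The Ier3 window held a match to the NF-kB site 92 bases before its start. The Zfp36 window held a match to the EGR site GCGNGGGCG at 105 bases and a CArG box, the SRF site, at 58 bases before the start. None of the searched motifs is capitalised in the Jun window. Searches used both strands of 300-base windows, with 250 bases before and 50 after the start, and 32851 windows of all genes served as the background. A CArG box stood in 12.8% of 47 member windows and in 1.63% of all windows. TGACGTCA stood in 10.6% and 1.79%, its half-site TGACG, which overlaps it and is not capitalised, in 51.1% and 20.8%, and the NF-kB site in 19.1% and 4.51%. GCGNGGGCG was found in 17.0% and 5.55%, CACGTG in 14.9% and 7.15%, and TATAAA, searched on the gene's strand only, in 14.9% and 8.32%. The AP-1 site TGANTCA stood in 4.26% of member windows and 7.81% of all windows, the STAT site in 2.13% and 6.95%, and the NR4A site AAAGGTCA in 0% and 1.51%. Windows of the same gene can overlap, as those of Egr2 do. The 6 member windows with a CArG box came from 3 of 31 genes (Dusp5, Egr2 and Zfp36). Several of these were overlapping Egr2 windows that hold the same match, so the window share counts it repeatedly. A match is a description of the letters, not a bound site.

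Across the 7 groups, AM held the highest and IL-4c LPM the lowest means of most members. Of the 35 tested members 24 had their highest group mean in an AM group and 26 their lowest in an IL-4c LPM group. Nr4a3 is among the 24, although it was tested through its AM arrays alone. These counts were not made over all tested genes, so they describe the list and do not set it apart from other genes. The range between a member's highest and lowest group mean was smallest for Jund (0.38 log2 units), an AP-1 subunit that is present in resting cells, and largest for Fosb (6.35). Bcl3, an IkB-like partner of p50 and p52, ran the other way, with its lowest mean in AM of KO mice and its highest in IL-4c LPM of WT mice. Plk2, a polo-like kinase, was lowest in AM of WT mice and highest in naive LPM of WT mice.

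**Figure D1:**
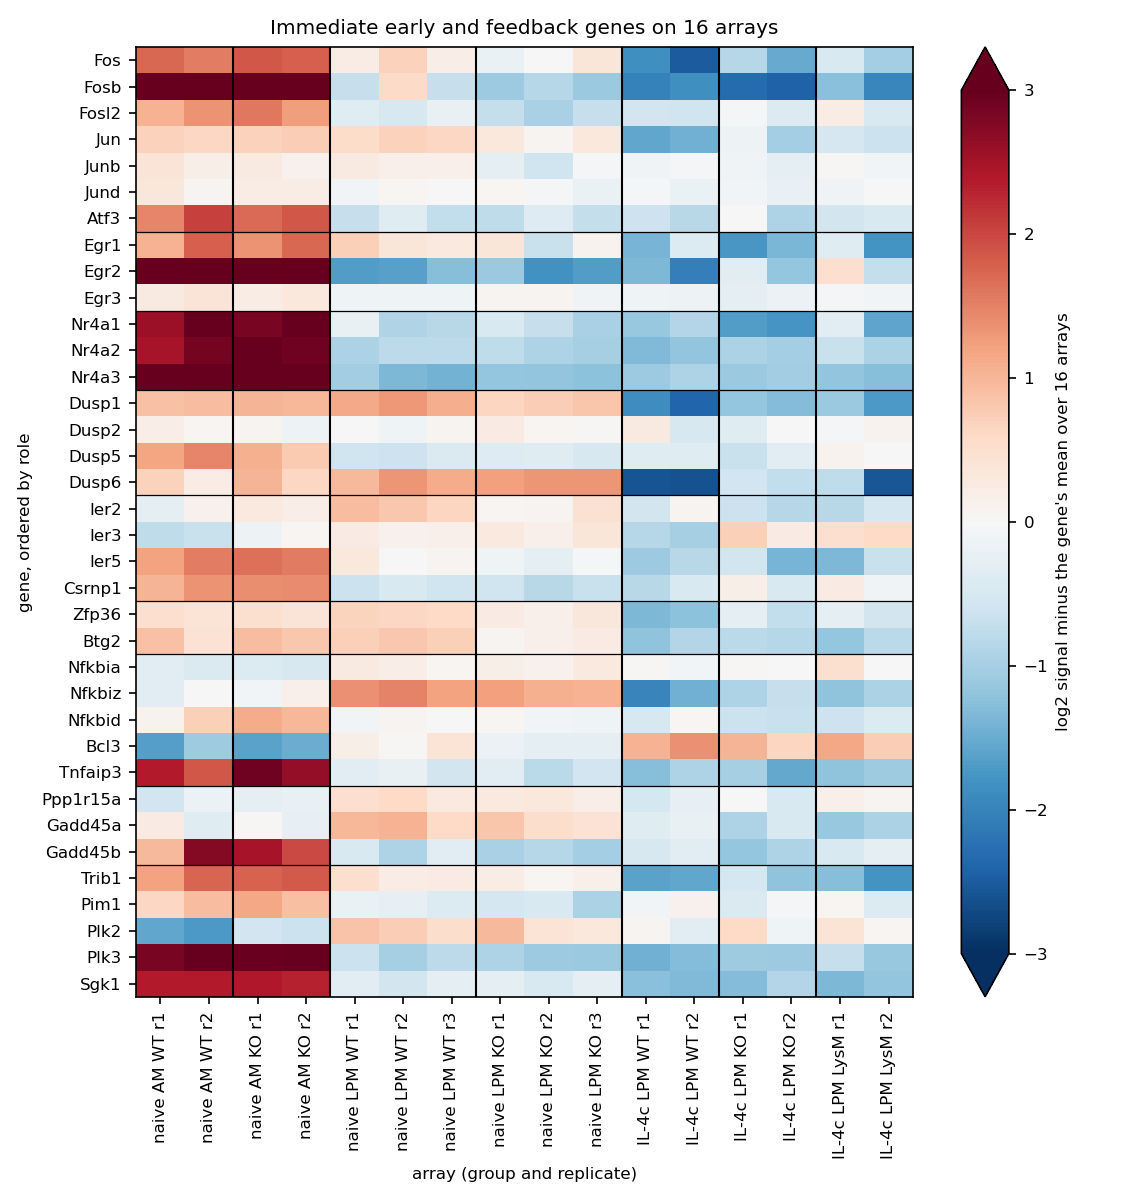
Log2 signal of the 36 genes (lines, ordered by role) on the 16 arrays (columns), shown as the difference from each gene's mean over the arrays and with a colour scale that ends at 3 in either direction. AM columns are red for Fosb, Egr2, the NR4A genes, Plk3 and Sgk1, and the IL-4c columns are blue for Fos, Dusp1, Dusp6, Nfkbiz and Trib1.

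Egr2, Fosb and other inducible transcription factors were far lower in naive LPM than in AM. In WT mice 18 of 35 members were lower in LPM than in AM and 8 were higher (limma, adjusted p under 0.05), where 17.1% of all tested genes were lower, 21.2% higher and 38.3% changed either way. The members' median difference, LPM minus AM, was -0.97, and that of all genes was 0.02. In KO mice 22 members were lower and 6 higher, beside 22.8% and 17.3% of all genes and 40.0% either way, with medians of -1.33 and -0.01. Nr4a3 is in both counts of lower members and in the medians, although it entered the test through its AM arrays alone. The WT and KO comparisons share no arrays. Of the members lower in LPM, 17 were lower in both genotypes, 1 (Egr3) in WT alone and 5 (Btg2, Egr1, Jun, Junb and Nfkbid) in KO alone, but the difference between the genotypes passed the test for none of them, as given below. The overlap was not counted over all tested genes.

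Egr2, a zinc-finger factor of the EGR family, read 11.37 and 11.60 on AM arrays of WT mice, 11.39 and 11.54 on those of KO mice, and between 6.10 and 6.79 on the 6 naive LPM arrays. AM and LPM did not overlap, and the signal was 34.3-fold higher in AM of WT mice (LPM minus AM -5.10, SE 0.32, limma adjusted p = 1.6e-09). Fosb, an AP-1 subunit that pairs with Jun proteins, read 10.65 and 11.07 in AM of WT, 11.07 and 10.95 in AM of KO, 6.34, 7.61 and 6.33 in LPM of WT and 5.93, 6.18 and 5.92 in LPM of KO. Its groups were also apart, with WT replicate 2 the highest LPM array, and the difference was -4.10 (SE 0.30, adjusted p = 9.9e-09) in WT and -5.0 (SE 0.30, adjusted p = 8.0e-10) in KO. Fos, Fosl2 and Atf3, the stress-induced repressor, were lower in LPM as well (-1.27, -1.55 and -2.36 in WT, -1.78, -2.21 and -2.40 in KO), while Jun, Junb and Jund did not pass in WT (-0.05, -0.09 and -0.20).

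Of the NR4A genes, orphan nuclear receptors that are induced without a ligand, Nr4a1 and Nr4a2 were lower in LPM in both genotypes. They differed by -3.44 and -3.51 in WT and by -3.66 and -3.85 in KO. Nr4a3 read 8.07 and 8.15 in AM of WT and 7.79 and 7.74 in AM of KO, and from 3.02 to 3.40 on every naive LPM array. It passed the array median on 4 arrays only, all of AM, so it had to differ to be tested. Its values are given as a description, and its call supports nothing here.

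Among the kinases, Plk3, a stress-responsive polo-like kinase, read 9.64 and 10.07 in AM of WT and 6.15, 5.81 and 6.01 in LPM of WT (14.5-fold higher in AM, -3.86, SE 0.16, adjusted p = 1.1e-11). In KO it read 9.77 and 10.04 against 5.88, 5.70 and 5.69, again with no overlap (-4.15, SE 0.16, adjusted p = 4.7e-12). Sgk1, a kinase induced by serum and glucocorticoid, differed by -2.77 in WT and -2.70 in KO, and Trib1, a pseudokinase that directs C/EBP proteins to degradation, by -1.16 and -1.65. Plk2 was the exception in the group and was higher in LPM (2.36 in WT, 1.19 in KO). Pim1, a kinase that favours survival, was lower in LPM (-1.06 and -1.68).

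The feedback genes divided between the cell types. Tnfaip3, the ubiquitin-editing inhibitor A20, read 8.90 and 8.37 in AM of WT, 9.44 and 9.15 in AM of KO and between 5.71 and 6.29 in naive LPM, without overlap (-2.49 in WT, SE 0.20, adjusted p = 3.8e-08). The IkB genes Nfkbia and Nfkbiz and the IkB-like Bcl3 were instead higher in LPM, by 0.56, 1.52 and 1.56 in WT and by 0.64, 1.08 and 1.31 in KO. Dusp5, a nuclear phosphatase of ERK, read 6.56 and 6.86 in AM of WT, 6.45 and 6.17 in AM of KO and from 4.77 to 5.03 in naive LPM, so the cell types stood apart (-1.88 in WT, SE 0.14, adjusted p = 1.1e-08). Some naive LPM arrays of WT lay below the array median for Dusp5, so this size is inexact. Dusp1, a nuclear phosphatase of p38 and JNK, and Dusp6, a cytoplasmic phosphatase of ERK, did not pass the test between LPM and AM (0.28 and 0.68 in WT, adjusted p = 0.22 and 0.13), nor did the RNA-decay factor Zfp36 (0.16 in WT, adjusted p = 0.40). In limma fits on only the compared arrays, however, Dusp6 passed as higher in LPM in WT (0.68, adjusted p = 0.0081) and KO (0.47, adjusted p = 0.033).

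Of the remaining nuclear and stress genes, Csrnp1, a nuclear early-response protein, read 7.72 and 8.05 in AM of WT, 8.09 and 8.12 in AM of KO and from 5.85 to 6.23 in naive LPM, with no overlap (-1.76 in WT, SE 0.18, adjusted p = 6.6e-07). Gadd45b, a stress sensor upstream of p38 and JNK, read 6.28 and 8.06 in AM of WT, 7.79 and 7.28 in AM of KO and from 4.30 to 5.0 in naive LPM. The WT AM arrays of Gadd45b lay far apart, and its signal in naive LPM of KO was below the array medians, so its difference of -2.43 (SE 0.34, adjusted p = 2.3e-05) is inexact. It was -1.54 without AM WT replicate 2 and -3.32 without replicate 1. Ier5 was lower in LPM (-1.24 in WT, -1.76 in KO), and Ier2 and Ier3 were higher in WT (0.86 and 0.90) and did not pass in KO (-0.05 and 0.32). The KO difference of Ier3 did pass by limma after a second quantile normalization (0.50, adjusted p = 0.0046). It also passed with a variance trend and robust estimation (0.32, adjusted p = 0.042). Gadd45a and Ppp1r15a, the regulatory subunit that ends eIF2α phosphorylation, were higher in LPM (0.93 and 0.85 in WT, 0.70 and 0.52 in KO). Btg2, an antiproliferative protein that recruits deadenylases, did not differ detectably in WT (0.08, adjusted p = 0.72) and was lower in LPM of KO (-0.71, adjusted p = 0.0014), where it read 9.47, 9.54 and 9.63 against 10.31 and 10.20 in AM.

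AM were released by digestion of the lung and LPM by lavage, so cell type and isolation cannot be told apart. Other genes of these pathways, in lists of their own, differed in both directions. Of 12 tested early-response cytokines 5 were lower in LPM of WT and 1 was higher, led by Il1b (-5.26) and Tnf (-5.13), and of 14 other early transcription factors 8 were lower, led by Maff (-4.82), and 2 higher, led by Klf2 (2.38). Of 14 other NF-kB genes 6 were lower, led by Tnfaip2 (-2.63), and 1 higher, and of 9 RNA-decay genes 3 were lower and 1 higher. The MAP kinase feedback list had 3 of 11 higher, led by Spred1 (2.19), and 2 lower, and the signalling list 5 of 15 higher and 2 lower. Of 9 heat-shock genes 3 were higher, led by Hspb1 (1.69), and 2 lower, led by Hspe1 (-0.46). The part of tissue handling in these differences was not tested. Calls that ended without a single array were Gadd45a in WT (without AM WT replicate 2, 0.62, adjusted p = 0.051) and, in KO, Gadd45a (without AM KO replicate 2, 0.57, adjusted p = 0.12), Ppp1r15a (without AM KO replicate 1, 0.50, adjusted p = 0.084; without replicate 2, 0.55, adjusted p = 0.057), Junb (without AM KO replicate 1, -0.45, adjusted p = 0.091) and Jun, which was lost without any of the 5 arrays (-0.40 to -0.52, adjusted p of 0.057 to 0.18). In WT, Egr1 and Nfkbid passed without AM WT replicate 1 (-1.35 and -0.71, adjusted p = 0.047 and 0.0092). Jund passed in KO without naive LPM KO replicate 1 (-0.36, adjusted p = 0.050). Some KO calls were also lost with every compared array kept. Jun was lost after a second quantile normalization (-0.29, limma adjusted p = 0.20). It was lost too with no dim filter (0.066) and with an olfactory receptor filter (0.052). Junb was lost after that normalization (-0.35, adjusted p = 0.056), and Ppp1r15a after median centring (0.43, adjusted p = 0.057). Besides Dusp6 and Ier3, calls gained this way were Egr1 and Nfkbid in WT and Jund and Egr3 in KO.

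**Figure D2:**
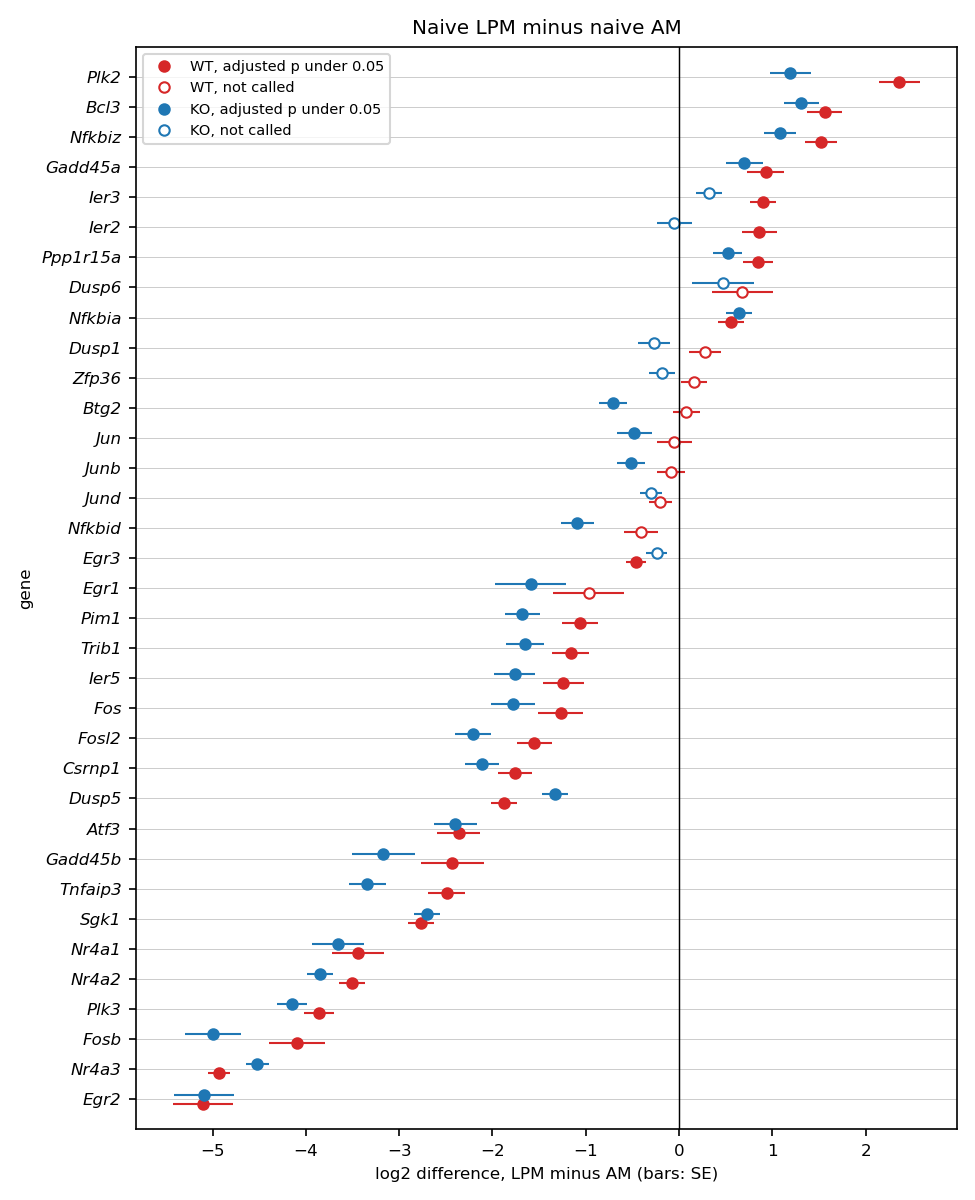
Difference between naive LPM and naive AM for the 35 tested genes, on the log2 scale (points, with bars of 1 standard error), in WT (red) and KO (blue) mice; filled points passed limma's adjusted p of 0.05 and open points did not. Egr2, Nr4a3 (tested through its AM arrays alone) and Fosb lie farthest to the left in both genotypes, Plk2 and Bcl3 farthest to the right.

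A majority of the listed genes were lower in LPM after IL-4c than in naive LPM, with Dusp6, Dusp1 and Nfkbiz in front. In WT mice 20 of 35 members fell and 1 rose between naive and IL-4c LPM (limma, adjusted p under 0.05), while 19.2% of all tested genes fell, 22.0% rose and 41.2% changed either way. The median difference, IL-4c minus naive, was -0.73 for the members and 0.02 for all genes. In KO mice 18 members fell and 3 rose, beside 15.4% and 21.9% of all genes and 37.3% either way, with medians of -0.50 and 0.04. The WT and KO responses share no arrays, and 16 members fell in both, which is 80.0% of those that fell in WT and 88.9% of those that fell in KO. The overlap was not counted over all tested genes, so whether it is larger for the members was not tested. Both responses use the naive LPM arrays that also enter the LPM and AM comparisons, so those comparisons are not independent of each other.

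The DUSP group held the largest changes. Dusp6 read 8.65, 9.0 and 8.78 in naive LPM of WT and 5.08 and 5.06 after IL-4c, and in KO 8.91, 8.99 and 9.0 before and 7.09 and 6.93 after. Both IL-4c groups lay below every naive array, and Dusp6 fell 13.4-fold in WT (-3.74, SE 0.33, adjusted p = 5.5e-07) and also in KO (-1.96, SE 0.33, adjusted p = 3.2e-04). Dusp1 read 11.81, 11.96 and 11.77 before and 8.81 and 8.28 after IL-4c in WT, and 11.31, 11.41 and 11.50 before and 9.50 and 9.37 after in KO. Again no IL-4c array reached a naive one, and Dusp1 fell 9.87-fold in WT (-3.30, SE 0.17, adjusted p = 2.6e-09) and also fell in KO (-1.97, SE 0.17, adjusted p = 7.7e-07). Dusp5 did not pass the test in either genotype (0.18 in WT, -0.09 in KO).

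Of the AP-1 genes, Fos, Fosb and Jun fell, and Junb, Jund and Atf3 did not pass the test in either genotype. Fos read 8.64, 9.12 and 8.63 in naive and 6.58 and 5.93 in IL-4c LPM of WT, and 8.23, 8.41 and 8.79 against 7.57 and 6.92 in KO. Jun, the partner of the Fos proteins, read 9.50, 9.64 and 9.59 against 7.40 and 7.52 in WT and 9.27, 9.03 and 9.27 against 8.81 and 7.93 in KO. Naive and IL-4c arrays of these genes did not overlap in either genotype. Fos fell in WT (-2.54, SE 0.24, adjusted p = 1.1e-06) and in KO (-1.24, SE 0.24, adjusted p = 9.7e-04), and so did Jun (-2.12, SE 0.19, adjusted p = 4.7e-07 in WT; -0.82, SE 0.19, adjusted p = 0.0028 in KO). In KO Fosb fell from 5.93, 6.18 and 5.92 to 4.71 and 4.61 (-1.35, SE 0.30, adjusted p = 0.0024), a level below the array medians, and Fosl2, a Fos-related subunit, rose (0.57, adjusted p = 0.025).

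Egr1, the founding member of its family, read 8.31, 7.96 and 7.90 in naive and 6.21 and 7.20 in IL-4c LPM of WT, and 7.96, 6.94 and 7.72 against 5.86 and 6.23 in KO. The groups did not overlap, but the IL-4c WT arrays lay far from each other, and Egr1 fell in WT (-1.35, SE 0.38, adjusted p = 0.010) and in KO (-1.5, SE 0.38, adjusted p = 0.0062). Egr2, which IL-4 is known to induce in macrophages through STAT6, did not pass the test in WT (-0.17, adjusted p = 0.71) or KO (0.80, adjusted p = 0.061). Egr3 lay between 5.33 and 5.71 on the LPM arrays of WT and KO and did not pass either. Nr4a1 fell in KO, from 6.83, 6.59 and 6.33 to 5.61 and 5.52 (-1.02, SE 0.28, adjusted p = 0.011), with -0.36 as its WT value (adjusted p = 0.33). Nr4a2 fell in WT, from 5.33, 5.51 and 5.50 to 4.97 and 5.11 (-0.40, SE 0.14, adjusted p = 0.032), against -0.09 in KO (adjusted p = 0.67).

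Ier3, an early gene that acts in cell survival, read 9.72, 9.61 and 9.64 in naive and 8.62 and 8.49 in IL-4c LPM of WT. In KO it read 9.77, 9.64 and 9.84 before and 10.20 and 9.74 after. It fell in WT, with the IL-4c arrays below all naive arrays (-1.10, SE 0.14, adjusted p = 1.3e-05), and in KO the groups overlapped and no change passed the test (0.22, SE 0.14, adjusted p = 0.23). The nuclear genes Ier2 and Ier5 fell in both genotypes (-1.03 and -1.10 in WT, -0.95 and -0.82 in KO). Ier2 in KO went from 7.72, 7.75 and 8.13 to 7.02 and 6.81. Csrnp1 rose in KO (0.55, adjusted p = 0.025), against -0.08 in WT.

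Both RNA-decay genes fell in both genotypes. Zfp36 (tristetraprolin) read 10.91, 10.88 and 10.85 in naive and 8.91 and 9.02 in IL-4c LPM of WT, and 10.50, 10.41 and 10.59 against 9.96 and 9.51 in KO. It fell 3.78-fold in WT (-1.92, SE 0.14, adjusted p = 7.1e-08), and its KO difference was also called (-0.77, SE 0.14, adjusted p = 5.0e-04), with no overlap of naive and IL-4c arrays. Btg2 read 10.11, 10.20 and 10.10 against 8.19 and 8.52 in WT and 9.47, 9.54 and 9.63 against 8.59 and 8.53 in KO (-1.78 and -0.99, SE 0.15 for each, adjusted p = 4.0e-07 and 1.5e-04).

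Among the NF-kB feedback genes, Nfkbiz, a nuclear IkB that also activates target genes, read 8.49, 8.61 and 8.31 in naive and 5.14 and 5.68 in IL-4c LPM of WT, and 8.34, 8.18 and 8.16 against 6.18 and 6.43 in KO. The naive and IL-4c arrays did not overlap in either genotype, and Nfkbiz fell 8.32-fold in WT (-3.06, SE 0.17, adjusted p = 4.6e-09), and its KO difference was called too (-1.92, SE 0.17, adjusted p = 7.7e-07). Bcl3 rose in both, from 7.33, 7.19 and 7.57 to 8.20 and 8.54 in WT and from 6.99, 6.87 and 6.87 to 8.17 and 7.80 in KO (1.0 and 1.07, SE 0.19 for each, adjusted p = 4.9e-04 and 3.9e-04). Tnfaip3 fell in WT and KO (-0.73 and -0.70), and Nfkbia, the classical IkBα, did not pass the test in either (-0.21 and -0.18). Nfkbid, a nuclear IkB, fell in KO (-0.62, adjusted p = 0.011), against -0.21 in WT.

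Of the kinases, Trib1 read 7.84, 7.56 and 7.59 in naive and 5.73 and 5.77 in IL-4c LPM of WT, and 7.57, 7.39 and 7.49 against 6.82 and 6.13 in KO. Naive and IL-4c arrays did not overlap, and Trib1 fell in WT (-1.91, SE 0.20, adjusted p = 2.5e-06) and in KO (-1.01, SE 0.20, adjusted p = 0.0011). Sgk1 fell in both (-0.91 and -0.75), Plk2 and Plk3 in WT (-0.84 and -0.57), and Pim1 in neither (0.30 and 0.41). The stress gene Gadd45a read 7.81, 7.86 and 7.41 in naive and 6.45 and 6.59 in IL-4c LPM of WT, and 7.64, 7.35 and 7.24 against 5.88 and 6.36 in KO (-1.17 and -1.29, SE 0.20 for each, adjusted p = 2.6e-04 and 1.7e-04). Ppp1r15a fell in WT and KO (-0.86 and -0.50).

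Other genes of these pathways were counted in separate lists. Of 11 tested MAP kinase feedback genes outside the list, 5 fell and 1 rose in WT, led by Rgs2 and Rgs1, which shorten G-protein signals (-4.32 and -4.07), and Dusp10, a phosphatase of p38 and JNK, which rose (2.76). Of 12 cytokines 6 fell and 2 rose in WT, led by Ccl3 and Cxcl2 (-4.52 for each) and by Il6 (2.09). Of 14 other NF-kB genes 4 fell and 3 rose, led by Rel (-0.88) and Tnip3 (2.41). Of 9 heat-shock genes 4 fell, led by Hspa1a (-1.90). The other early transcription factors, 14 tested, had 3 falls in WT, led by Per1 (-1.61), and 2 rises, led by Klf4 (1.87). They had 1 fall and 2 rises in KO, and the list's median was 0.03 in WT and -0.03 in KO. In KO the MAP kinase feedback list had 3 falls and 1 rise, the cytokines 3 and 2, the other NF-kB genes 1 and 4, and the heat-shock genes 2 and 1. The cytokine list's median was -0.66 in WT and 0.19 in KO, and that of the other NF-kB genes -0.20 and -0.10. Genes of the marker lists also moved. Of 4 tested neutrophil markers 2 fell in WT, and 1 rose and 1 fell in KO, and of 4 tested markers of dendritic cells, monocytes and small peritoneal macrophages 1 rose and 1 fell in each genotype. Of 8 AM markers 2 rose in WT, and 3 rose and 1 fell in KO. The AM list did not rise as a whole, with medians of -0.02 in WT and 0.15 in KO. In WT, 3 of the 8 differences lay above 0. Chil3 read at most 7.2 on naive LPM arrays of WT and 12.49 and 12.39 after IL-4c. Car4 read at most 4.21 before and 7.89 and 6.42 after. Fabp1, Krt79 and Cidec read at most 2.88, 4.19 and 4.2 before and at most 2.64, 3.98 and 4.3 after. Of 4 tested B-cell markers 3 fell in WT and 4 in KO. The mean of the 7 measured B-cell genes was 4.15 to 4.87 on naive LPM arrays and 3.66 to 3.88 on the IL-4c arrays of these genotypes. Those means lay at or below the array medians, but Cd79b stood above them on every naive LPM array. Cd79b read 5.23 to 6.56 there and 4.36 to 4.85 on the IL-4c arrays of WT and KO. Of 9 LPM markers 5 fell in WT and 4 in KO. The part of other cells in the members' changes was not tested. The labels name no group injected without IL-4c, so IL-4c and the injections cannot be told apart. No source used here says whether naive and IL-4c arrays were made together.

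Calls of the IL-4c responses that ended without a single array were as follows. In WT, Egr1 (-0.85, adjusted p = 0.17), Plk3 (-0.50, adjusted p = 0.086), Tnfaip3 (-0.55, adjusted p = 0.11) and Nr4a2 (-0.33, adjusted p = 0.19) were lost without IL-4c WT replicate 1, and Plk2 (-0.63, adjusted p = 0.10) without replicate 2. Nr4a2 was also lost without IL-4c WT replicate 2 and without naive WT replicates 2 or 3, at adjusted p up to 0.19. In KO, Jun (-0.38, adjusted p = 0.075), Ier5 (-0.39, adjusted p = 0.22), Nr4a1 (-0.97, adjusted p = 0.059), Ppp1r15a (-0.28, adjusted p = 0.25), Tnfaip3 (-0.42, adjusted p = 0.19) and Nfkbid (-0.61, adjusted p = 0.054) were lost without IL-4c KO replicate 2. Egr1 (-1.32, adjusted p = 0.065), Nfkbid (-0.63, adjusted p = 0.057), Fosl2 (0.39, adjusted p = 0.25) and Csrnp1 (0.25, adjusted p = 0.40) were lost without IL-4c KO replicate 1. Fosl2, Csrnp1 and Ppp1r15a were lost without naive KO replicate 2 (0.48, 0.48 and -0.48), and Tnfaip3 without naive KO replicate 1 (-0.57). Calls gained were Nr4a3 in WT without naive WT replicate 1 (0.38) and, in KO, Egr2 (1.22), Atf3 (0.65) and Ier3 (0.45) without IL-4c KO replicate 2, Egr2 without naive KO replicate 1 (1.01), Plk2 without IL-4c KO replicate 1 (-0.70) and Egr3 without naive KO replicate 3 (-0.32). The falls of Dusp6, Dusp1, Nfkbiz and Fos passed in both genotypes under every alternative tried.

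**Figure D3:**
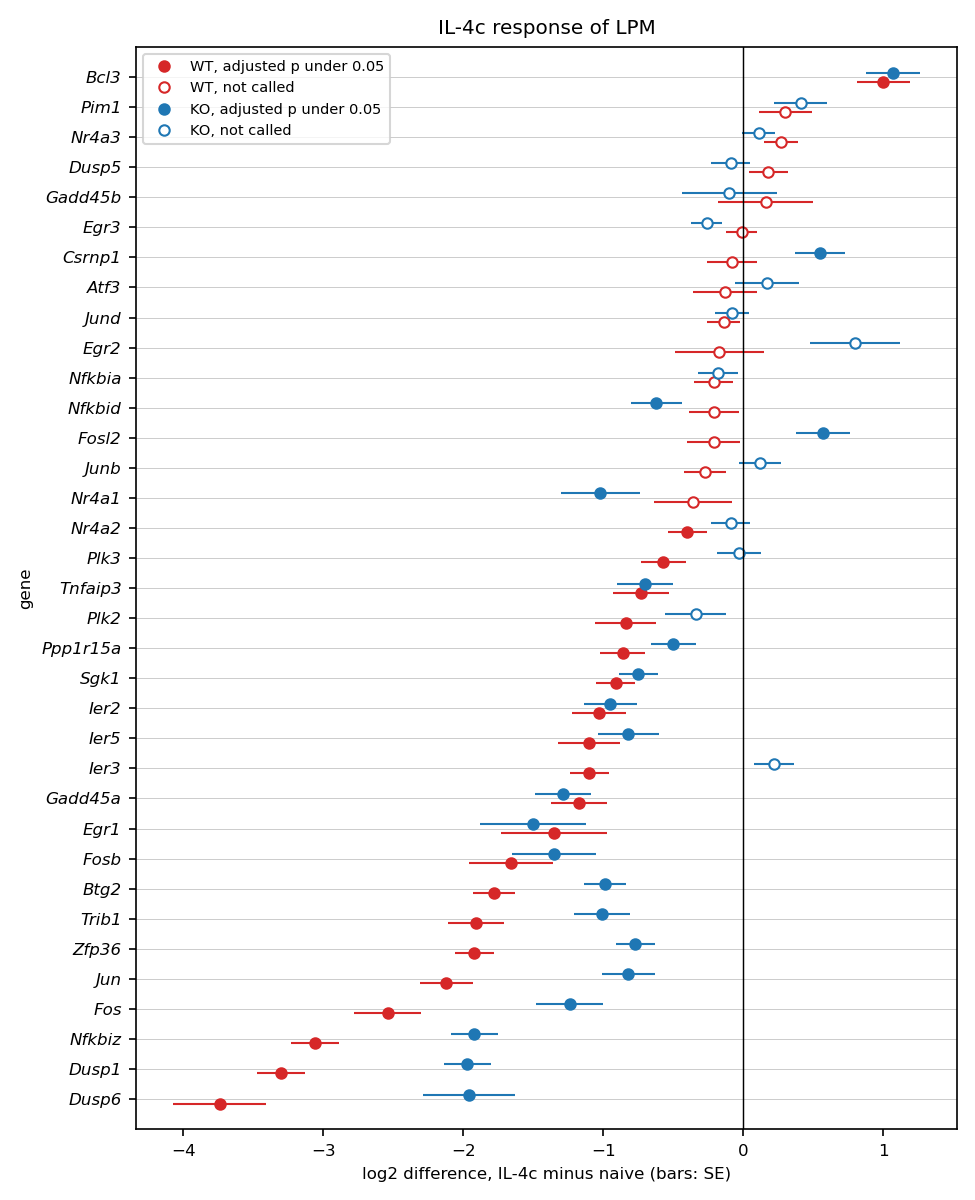
Difference between IL-4c and naive LPM for the 35 tested genes on the log2 scale (points, with bars of 1 standard error) in WT (red) and KO (blue) mice; filled points passed limma's adjusted p of 0.05. Dusp6, Dusp1, Nfkbiz, Fos and Jun lie farthest to the left in WT, with the KO points nearer to 0, and Bcl3 lies to the right in both.

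In LPM of mice given IL-4c, Ier3, Dusp6 and other early and feedback genes were higher without Bhlhe40. Of 35 members 6 were higher in KO than in WT and 0 lower (limma, adjusted p under 0.05), where 2.12% of all tested genes were higher, 1.50% lower and 3.63% changed either way. They were Dusp6, Ier3, Jun, Dusp1, Nfkbiz and Zfp36. The median KO minus WT difference was 0.15 for the members and -0.02 for all genes, and 19 of 35 lay above 0 and 16 below. An unadjusted p under 0.05 was reached by 13 members.

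Ier3 read 10.20 and 9.74 on KO arrays and 8.62 and 8.49 on WT arrays, 2.67-fold higher in KO (1.42, SE 0.15, limma adjusted p = 7.1e-05). Dusp6 read 7.09 and 6.93 in KO and 5.08 and 5.06 in WT, 3.84-fold higher (1.94, SE 0.36, adjusted p = 0.0077). Dusp1 read 9.50 and 9.37 against 8.81 and 8.28 (0.89, SE 0.19, adjusted p = 0.016). Both KO arrays lay above both WT arrays for each of these genes. Jun read 8.81 and 7.93 in KO and 7.40 and 7.52 in WT (0.91, SE 0.20, adjusted p = 0.020), and its KO arrays differed more from each other than KO replicate 2 did from WT. Zfp36 read 9.96 and 9.51 against 8.91 and 9.02 (0.77, SE 0.15, adjusted p = 0.010). Nfkbiz read 6.18 and 6.43 against 5.14 and 5.68 (0.89, SE 0.18, adjusted p = 0.014). No WT array of Zfp36 or Nfkbiz reached a KO array. Fos read 7.57 and 6.92 in KO and 6.58 and 5.93 in WT, and missed the threshold (0.98, SE 0.27, adjusted p = 0.053), as did Trib1 (0.72, adjusted p = 0.084) and Egr2 (0.96, adjusted p = 0.16). Other members lay lower in KO and also missed it. Among them were Nr4a1, Ier2 and Nfkbid (-0.71, -0.51 and -0.45, limma adjusted p = 0.25, 0.22 and 0.24), whose KO and WT arrays did not overlap.

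With LysM-Cre deletion, 8 members were higher and 1 lower than in WT (limma, adjusted p under 0.05), beside 4.80% and 3.87% of all tested genes and 8.67% either way. The median LysM minus WT difference was 0.22 for the members and -0.01 for all genes. The 2 comparisons share the WT arrays, so their values are given side by side and are not independent. Ier3 read 9.99 and 10.08 on the LysM arrays (1.48, SE 0.15, adjusted p = 3.0e-05), and Zfp36 9.98 and 9.70 (0.88, SE 0.15, adjusted p = 0.0024). Jun read 8.46 and 8.32 (0.93, SE 0.20, adjusted p = 0.010), and Nfkbiz 5.90 and 6.17 (0.62, SE 0.18, adjusted p = 0.048). For all of these the LysM arrays lay above both WT arrays.

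Fos read 7.97 and 7.41 on the LysM arrays, 2.70-fold higher than in WT (1.43, SE 0.27, adjusted p = 0.0040). Egr2 read 8.41 and 7.19 on them and 6.57 and 5.86 in WT (1.59, SE 0.35, adjusted p = 0.011), and Dusp1 9.56 and 8.95 (0.71, SE 0.19, adjusted p = 0.028). The groups did not overlap, and LysM replicate 1 was the higher LysM array of all of these genes. Csrnp1 was higher too (0.72, adjusted p = 0.033). Gadd45a, a growth-arrest gene, read 5.68 and 5.86 against 6.45 and 6.59 and was the member called lower (-0.75, SE 0.22, adjusted p = 0.046). Dusp6 read 6.91 and 5.11 on the LysM arrays, one near KO and the other at the WT level, and did not pass (0.94, SE 0.36, adjusted p = 0.13).

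KO and LysM themselves differed in 0 of 35 members by limma, beside 0.0172% of all genes, with 5 members at an unadjusted p under 0.05. The widest differences, KO minus LysM, were those of Dusp6 (1.0, SE 0.36, adjusted p = 0.44) and Nr4a1 (-0.77, SE 0.31, adjusted p = 0.50). Without LysM replicate 1 the Dusp6 difference was 1.90 and passed (adjusted p = 0.0029), and without LysM replicate 2 that of Nr4a1 was -1.39 and passed (adjusted p = 0.024).

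Several calls among the IL-4c genotypes changed with single arrays or with the processing. Ier3 passed in KO and in LysM under every alternative tried, with adjusted p up to 0.022 and 0.014. In KO the count fell from 6 to 2 without WT replicate 2 and to 2 without KO replicate 1, where Jun stood at 0.97 and 0.47, Zfp36 at 0.83 and 0.55, Dusp1 at 0.63 and 0.82 and Dusp6 at 1.93 and 1.86. Without WT replicate 1, Jun, Zfp36 and Nfkbiz missed the threshold (0.86, 0.72 and 0.62), and Nfkbiz also without KO replicate 2 (0.77). For LysM the count of 9 fell to 5 without WT replicate 1, 3 without WT replicate 2 and 2 without LysM replicate 1, and was 10 without LysM replicate 2. Without WT replicate 2 and without LysM replicate 1, Fos stood at 1.10 and 1.15, Egr2 at 1.24 and 0.98, Dusp1 at 0.45 and 0.41, Jun at 0.99 and 0.86, Csrnp1 at 0.90 and 0.54 and Gadd45a at -0.68 and -0.66, and none of them passed. Jun, Csrnp1, Nfkbiz and Gadd45a were also lost without WT replicate 1 (0.87, 0.54, 0.35 and -0.82), and Nfkbiz and Gadd45a without LysM replicate 2 (0.49 and -0.85). Calls gained were Fos (1.31), Trib1 (1.07) and Csrnp1 (0.81) in KO without KO replicate 2, Fos (1.31) without WT replicate 1, and Dusp6 (1.84), Fosl2 (0.80) and Plk3 (0.70) in LysM without LysM replicate 2. Nfkbiz in LysM was lost without LysM replicate 1 too (0.75). It was also lost after median centring (adjusted p = 0.059), a second quantile normalization (0.050), no dim filter (0.063) and a filter by olfactory receptor probe sets (0.051), and Gadd45a after a second quantile normalization (0.069) and with no dim filter (0.059).

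Over the members, replicate 1 read higher than replicate 2 in KO and LysM but not in WT. In the cytokine, heat-shock and MAP kinase feedback lists replicate 1 was the higher array in all 3 groups. The mean of the MAP kinase feedback list was 5.95 and 5.91 in WT, 6.09 and 6.0 in KO and 6.47 and 5.86 in LysM. The mean over the 35 tested members was 6.55 and 6.64 on the WT arrays, 6.90 and 6.69 on the KO arrays and 7.04 and 6.77 on the LysM arrays. The mean of the cytokine list was 5.84 and 5.42 in WT, 7.14 and 6.10 in KO and 7.16 and 6.30 in LysM, and that of the heat-shock list 8.79 and 8.55, 9.0 and 8.66, and 8.79 and 8.47. For the other early transcription factors it was 6.88 and 6.84 in WT, 6.88 and 6.92 in KO and 6.96 and 6.86 in LysM. That list held 0 calls of 14 in KO and 1 in LysM, Myc, which was lower (-0.78). Of 12 tested cytokines 3 were higher and 1 lower in KO, led by Ccl7 and Ccl2, which attract monocytes (3.77 and 3.38), and by Il6 (-1.05), and in LysM 5 were higher and 1 lower (Ccl7 4.55, Ccl2 4.43, Il6 -1.67). Of 9 LPM markers 1 was higher in KO and 3 were higher and 1 lower in LysM, with a list mean of 9.47 to 9.65 in WT, 9.78 to 9.90 in KO and 9.76 to 10.10 in LysM. Of 8 AM markers 1 was higher in KO and 1 in LysM, and of 4 tested markers of dendritic cells, monocytes and small peritoneal macrophages 0 were called in KO and 1 was higher in LysM. The B-cell, T-cell, neutrophil, eosinophil and mast-cell lists held 0 calls by limma among their tested genes in either comparison, and the B-cell mean stayed at or below 3.88. The part of these differences between arrays in the members' values was not tested. Outside the list, Spred1, an inhibitor of the RAS and ERK pathway, was the MAP kinase feedback gene called higher in KO of 11 tested (0.80), and Mef2a (0.98), Icam1 (0.77) and Btg1 (0.66) were the single calls of the signalling, NF-kB and RNA-decay lists. In LysM those lists' calls were Mef2a (1.09), Cyld (-0.73) and Btg1 (0.82), and the MAP kinase feedback list held Spred1 (0.82) and Rgs2 (0.56).

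**Figure D4:**
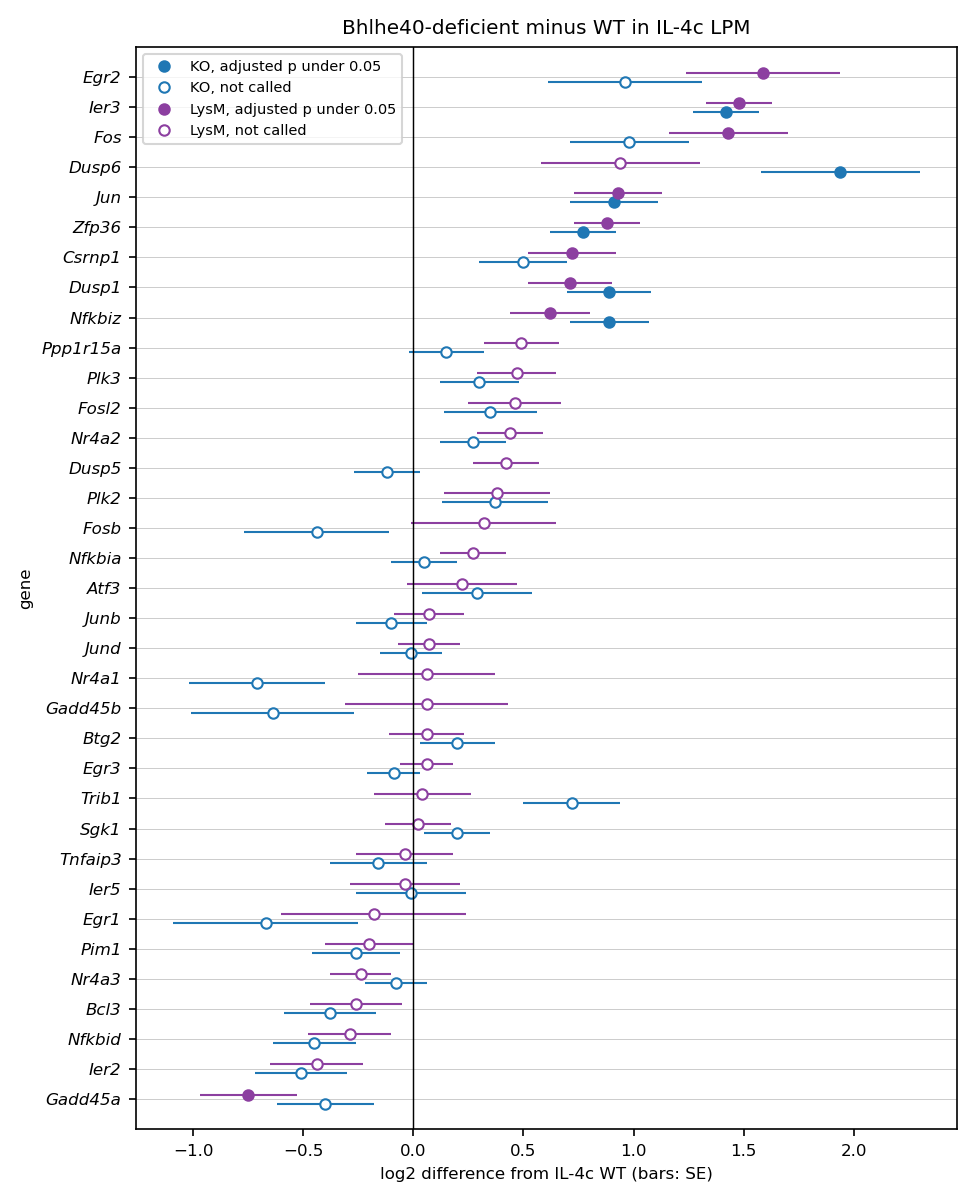
Difference from WT in IL-4c LPM for the 35 tested genes on the log2 scale (points, with bars of 1 standard error), for KO (blue) and LysM (purple); filled points passed limma's adjusted p of 0.05, and both series use the same 2 WT arrays. Ier3, Jun, Zfp36, Dusp1 and Nfkbiz have filled points of both colours, Dusp6 for KO and Fos, Egr2, Csrnp1 and Gadd45a for LysM.

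The difference of the differences was tested directly, as the KO minus WT difference in IL-4c LPM minus that in naive LPM. It passed in 5 of 35 members, all upward (limma, adjusted p under 0.05), where 0.404% of all tested genes passed upward and 0.550% either way. The median was 0.31 for the members and 0.03 for all genes. The values were 1.33 for Ier3 (SE 0.20, adjusted p = 0.0042), 1.15 for Zfp36 (SE 0.20, adjusted p = 0.013), 1.33 for Dusp1 (SE 0.24, adjusted p = 0.019), 1.30 for Jun (SE 0.26, adjusted p = 0.034) and 1.13 for Nfkbiz (SE 0.24, adjusted p = 0.043). In naive LPM the KO minus WT differences of these genes were 0.09, -0.38, -0.44, -0.39 and -0.24, none of which passed, and in IL-4c LPM they were 1.42, 0.77, 0.89, 0.91 and 0.89. Read as responses to IL-4c, Dusp1 changed by -3.30 in WT and -1.97 in KO, Zfp36 by -1.92 and -0.77, Jun by -2.12 and -0.82 and Nfkbiz by -3.06 and -1.92. The interaction uses the same arrays as those comparisons and is not independent of them.

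Dusp6 and Fos had interactions of 1.78 (SE 0.47) and 1.30 (SE 0.34) that missed the threshold (adjusted p = 0.095 for both). Fos and Trib1 passed without IL-4c KO replicate 2 (1.63 and 1.25, adjusted p = 0.044 for both), and Dusp6 in a fit on only the compared arrays (adjusted p = 0.0013). Those of the EGR and NR4A genes ran from -0.66 (Nr4a1) to 0.97 (Egr2), with none passing, and those of Bcl3, Nfkbia and Tnfaip3 were 0.07, 0.03 and 0.03. Zfp36l1, a relative of Zfp36 that also binds AU-rich RNA, was the 1 gene of 9 in the RNA-decay list that passed (1.28, adjusted p = 0.027). Of the members called, Nfkbiz was lost after a second quantile normalization (1.04, limma adjusted p = 0.067) and with no dim filter (1.13, adjusted p = 0.054). In fits on only the compared arrays Nfkbiz (1.13, adjusted p = 0.054) and Jun (1.30, adjusted p = 0.069) were both lost. Ier3 passed without any single array. Zfp36 was lost without IL-4c WT replicate 2 (1.21, adjusted p = 0.055) and without IL-4c KO replicate 1 (0.93, adjusted p = 0.068), and Dusp1 without those (1.07 and 1.26) and without naive WT replicate 2 (1.27). Jun and Nfkbiz were lost without most single arrays, at 0.86 to 1.36 for Jun and 0.86 to 1.26 for Nfkbiz, and the count was 1 to 6 over the arrays left out in turn.

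**Figure D5:**
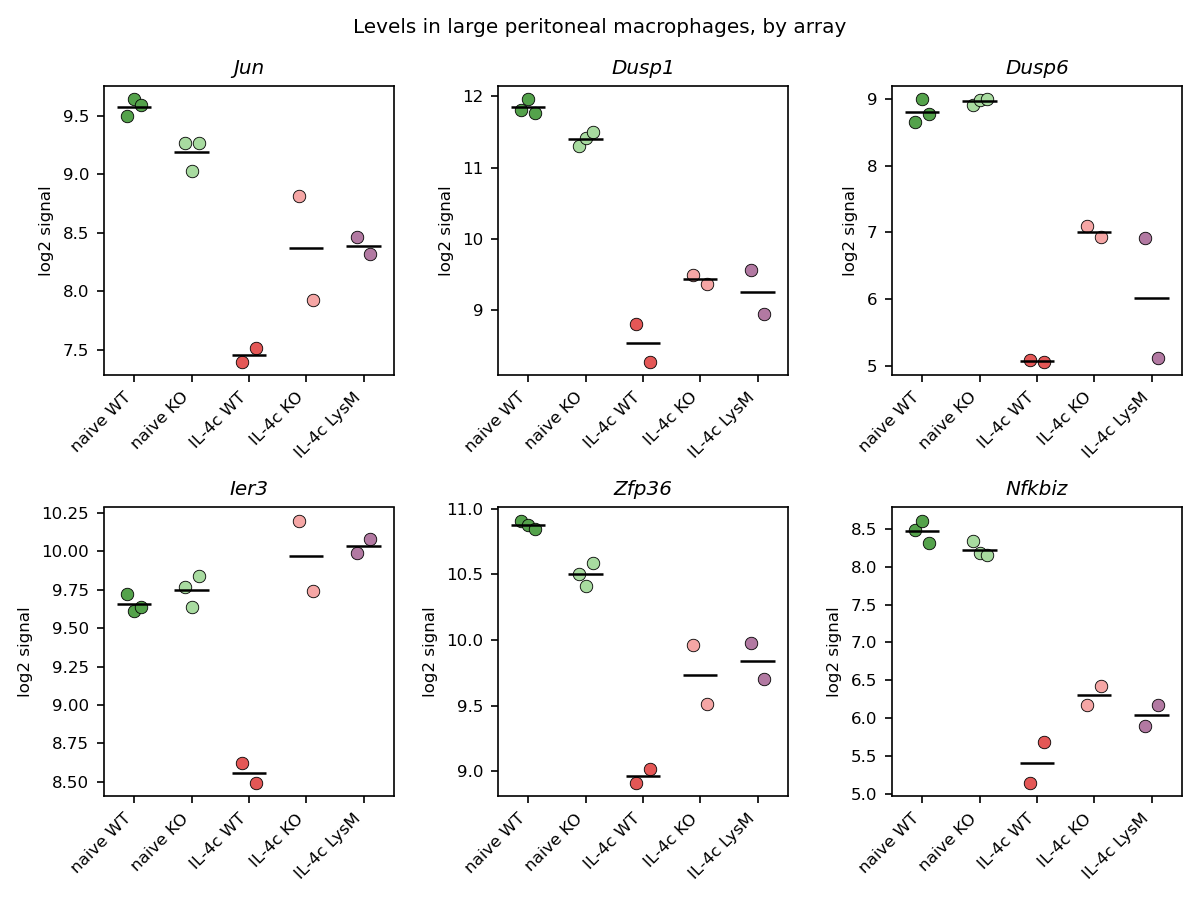
Log2 signal of Jun, Dusp1, Dusp6, Ier3, Zfp36 and Nfkbiz on each LPM array (points) with the group mean (line), for naive WT and KO and IL-4c WT, KO and LysM; each panel has its own axis, which does not start at 0. The IL-4c WT points lie lowest in every panel, and for Dusp6 one LysM point is near KO and the other at the WT level.

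In naive LPM 1 of 35 members passed, Btg2, which was lower in KO (limma, adjusted p under 0.05), where 1.35% of all tested genes were lower, 0.533% higher and 1.88% changed either way, so the members' share of 2.86% lower calls is a single gene. Of all genes called there 28.3% were higher, and 44.8% after a second quantile normalization, under which Btg2 missed the threshold (-0.47, adjusted p = 0.11). Btg2 read 9.47, 9.54 and 9.63 in KO and 10.11, 10.20 and 10.10 in WT, with no overlap (-0.59, SE 0.14, adjusted p = 0.038). The call was lost without any 1 of the 6 arrays (-0.55 to -0.63, adjusted p of 0.057 to 0.14). Of the 35 differences 28 were below 0, with a median of -0.20 against -0.03 for all genes, and 10 had an unadjusted p under 0.05. The next were Junb (-0.50, adjusted p = 0.064) and Ier2 (-0.60, adjusted p = 0.094). Without KO replicate 3, Junb was called (-0.63, adjusted p = 0.026). Fosb had the widest difference (-0.75, SE 0.27, adjusted p = 0.18), with WT replicate 2 at 7.61 and the other WT arrays at 6.34 and 6.33. Rgs2 was the 1 gene of 11 in the MAP kinase feedback list called (-0.64). The B-cell list mean ran from 4.15 to 4.87 in KO and from 4.34 to 4.46 in WT, and its part in these values was not tested.

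In AM 0 of 35 members passed by limma, beside 0.0516% of all tested genes higher, 0.0688% lower and 0.120% either way, with 6 at an unadjusted p under 0.05. The median difference, KO minus WT, was 0.15 for the members and 0.05 for all genes, and 25 lay above 0. Plk2 read 7.63 and 7.55 in KO and 6.63 and 6.47 in WT (1.04, SE 0.24, adjusted p = 0.25), and Ier3 9.33 and 9.53 against 8.71 and 8.81 (0.67, SE 0.15, adjusted p = 0.19). Neither gene's groups overlapped. Tnfaip3 and Nfkbid differed by 0.66 and 0.64 (adjusted p = 0.81 and 0.59). The AM marker mean ran from 10.40 to 10.50 in KO and from 10.15 to 10.25 in WT.

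The genotype difference of LPM minus that of AM passed in 0 of 35 members by limma, beside 0.0774% of all tested genes upward and 0.249% either way, with 12 at an unadjusted p under 0.05. Its median was -0.42 for the members and -0.09 for all genes, and 29 lay below 0. The lowest were Plk2 (-1.17, SE 0.32, adjusted p = 0.15), Ier2 (-0.91, adjusted p = 0.18) and Fosb (-0.90, adjusted p = 0.38). Gadd45b passed without AM WT replicate 2 (-1.63, adjusted p = 0.034), the array that read 8.06 where its partner read 6.28. Outside the list, Sik1, a kinase that restrains CREB coactivators, was the 1 early transcription-response gene of 14 tested that passed (-1.06, adjusted p = 0.047).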

How the data were processed

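The deposited values were log2 expression per probe set, 1 column per array, which the authors had made with RMA, as the submitters' processing notes state. RMA removes background, forces arrays to 1 distribution and summarises probes, and thereby hides any global shift in RNA content. No source used here gives its version or says which arrays were normalized jointly. A single gene symbol was at hand for 21789 of 30177 probe sets (1621 had several, 6767 none); these were used, with the highest-mean probe set per gene. Genes above the array median on at least 2 arrays were tested. Group means over 16 arrays were fitted with limma 3.58.1 in R 4.3.3 (9 residual and 6.61 prior degrees of freedom, median SD 0.171). Benjamini-Hochberg adjustment ran over 11634 genes in each of 11 comparisons, with a threshold of 0.05. Signed values are the first group named minus the second. Groups and replicate numbers came from sample titles.

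The members and lists were chosen with earlier results of these data known. Any member could be named, with values per array for the called member of each role with the largest difference and for those called in an interaction, and from other lists the called genes with the largest differences, up to 3 a list. Alternatives were centring on array medians, quantile normalization applied again, no dim filter, a filter set by 1035 probe sets of olfactory receptors (95th percentile), averaged probe sets, a variance trend with robust estimation, the compared arrays alone, a replicate block and omission of each array. Deviations of same-numbered arrays from group means correlated at -0.07 in AM, -0.14 to 0.07 in naive LPM and 0.11 to 0.21 in IL-4c LPM, where each group has only 2 numbers. The labels name no shared source for a number, so the numbers were not taken to pair samples. The fit was tested on simulated data. Plots were made in matplotlib 3.10.9 (Python 3.11.15).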

Additional observations from a re-analysis of the deposited data

Results flagged for a closer look

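The genotype effect differed between IL-4c and naive LPM, by limma's test of the difference itself, for 5 members. The KO minus WT difference in IL-4c LPM exceeded that in naive LPM by 1.33 log2 units for Ier3, 1.33 for Dusp1, 1.30 for Jun, 1.15 for Zfp36 and 1.13 for Nfkbiz. Only Ier3 passed under every alternative tried. Nfkbiz and Jun were lost even under some alternatives that left out none of the compared arrays. No group had 4 or more arrays, so single arrays were not tested as outliers.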

How the results depend on the processing

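No member's call changed direction under any alternative. With 2 arrays in most groups, leaving out 1 leaves a lone array that is assumed to vary like the other groups. Counts of called members moved by more than 1.5 times as follows, and the cause was not tested. A second quantile normalization gave 0 in naive LPM, a variance trend with robust estimation gave 2 there (Junb added), and fits on only the compared arrays, with fewer arrays behind the variance, gave 2 for KO and 2 for LysM against WT after IL-4c. Over the arrays left out in turn the count ran from 0 to 1 for KO against WT in naive LPM, 2 to 8 for KO and 2 to 10 for LysM after IL-4c, 0 to 1 for KO against LysM, 1 to 6 for IL-4c by genotype and 0 to 1 for cell type by genotype. It ran from 17 to 22 and 18 to 22 for the IL-4c responses of WT and KO and from 25 to 28 for LPM against AM in each genotype.

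The replicate numbers were not taken as a pairing: 2 of 6 naive LPM arrays were best matched by their own number, and in IL-4c LPM same-numbered arrays correlated at 0.11 to 0.21 over only 2 numbers. The replicate block gave 1 called member in AM (Plk2, adjusted p = 0.026) and 1 for cell type by genotype (Plk2, -1.17, adjusted p = 0.041). It gave 9 for KO after IL-4c, where it added Fos (0.98, adjusted p = 0.010), Egr2 (0.96, adjusted p = 0.024) and Trib1 (0.72, adjusted p = 0.048), 8 for LysM, where Csrnp1 was lost (adjusted p = 0.051), 20 and 23 for the IL-4c responses, 5 for IL-4c by genotype and 26 and 27 for LPM against AM.

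Calls held under every alternative for 16 of 21 members in the IL-4c response of WT, 12 of 21 in that of KO, 25 of 26 and 24 of 28 for LPM against AM in WT and KO, and 1 (Ier3) of 6, 9 and 5 for KO, LysM and the interaction after IL-4c. Scaling moved the share of higher among all genes called by over 10 points in naive LPM alone, from 28.3% to 44.8% after a second quantile normalization. Low signal, at or below the array medians on some or all arrays, limits Nr4a3 in LPM, Gadd45b in LPM of WT and KO, Dusp5 in naive LPM of WT and IL-4c KO and Fosb in IL-4c KO.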
